A study of Mus musculus with 6 samples.

Results

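The miR-23/27/24 clusters are a pair of short stretches of the mouse genome that each encode a miR-23, a miR-27 and a miR-24 hairpin on the same strand. The members were the 6 hairpin genes Mir23a, Mir27a and Mir24-2 (the Mir23a cluster) and Mir23b, Mir27b and Mir24-1 (the Mir23b cluster), chosen by name among the 2265 features of the small RNA-seq count table. All 6 were found and all 6 passed the minimum level used for comparisons. Small RNA-seq counted short RNAs from Achilles tendon of 4-week-old mice, and RNA-seq of the same RNA samples counted longer transcripts. There was 1 library per genotype and assay, 6 libraries in all, so nothing is known of how much mice of one genotype vary, and no test could be run.

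The Control mouse had the genotype Dicer f/f, in which Dicer carries loxP sites but no Cre is present. The ScxHt mouse (ScxCre/+ Knock In:Dicer +/+) carried Cre at the Scx locus with intact Dicer, and the Dicer cKO mouse (ScxCre/+ Knock In:Dicer f/f) carried both. Dicer cKO and Control therefore differed in ScxCre as well as in Dicer, while Dicer cKO and ScxHt shared ScxCre and differed in the floxed alleles. The paper describes the ScxCre knock-in as able to inactivate endogenous Scx. Scx itself was thus altered by genotype in ScxHt and Dicer cKO. Scx drives Cre in tendon and ligament cells, so that other cells in the tissue, such as those of vessels, blood and muscle, carry an intact Dicer unless Cre was active in them. In bulk tissue, fewer cells of a type and less RNA per cell cannot be told apart.

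A miRNA cluster is copied as one long primary transcript, from which Drosha cuts the hairpins and Dicer then cuts the mature miRNAs. The mature strand is loaded into an Argonaute protein and pairs through its seed, bases 2 to 8, with sites in the 3′ untranslated regions of messenger RNAs, which lowers their stability or translation. The miR-23/27/24 clusters are known for roles in endothelial cells and angiogenesis, in muscle atrophy, and in fat and bone cell differentiation, and they are expressed in many cell types.

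The Mir23a cluster lies on chromosome 8 (GRCm38, plus strand), where Mir23a runs from 84208518 to 84208592, Mir27a from 84208672 to 84208758 and Mir24-2 from 84208815 to 84208921, a span of 404 bases. GENCODE places no protein-coding gene over it. The end of Mir24-2 overlaps an exon of the lincRNA Gm26532 on the same strand, and the nearer end of Zswim4, on the opposite strand, lies 1756 bases away. The Mir23b cluster lies on chromosome 13, plus strand, where Mir23b runs from 63300484 to 63300557, Mir27b from 63300712 to 63300784 and Mir24-1 from 63301208 to 63301275, a span of 792 bases. It is inside 2010111I01Rik (also named Aopep) on the same strand, where Mir23b is intronic and Mir27b and Mir24-1 are exonic in some transcripts and intronic in others. It is also within introns of Fancc on the opposite strand. On the minus strand, Mir3074-2 and Mir3074-1 overlap Mir24-2 and Mir24-1.

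**Figure D1:**
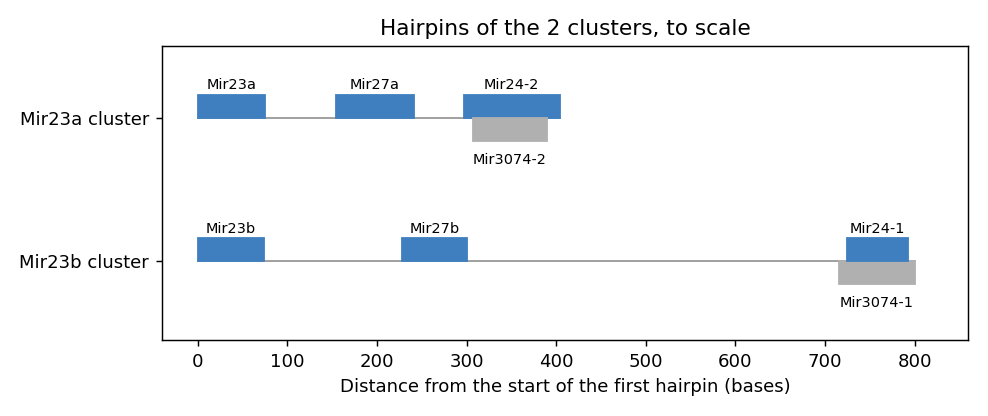
Hairpins of the clusters drawn to scale, with the distance in bases from the start of the first hairpin on the x axis. Blue boxes are the 6 members and grey boxes the minus-strand hairpins Mir3074-2 and Mir3074-1. The Mir23a cluster spans 404 bases and the Mir23b cluster 792 bases, the latter with a wider gap before Mir24-1.

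The sequences below, from RefSeq on GRCm38.p6, show which members can be told apart by their reads. The 3p strands carry the seeds that name the families, given here in capitals. The mature miR-23b-3p is named only.
mmu-miR-23a-3p: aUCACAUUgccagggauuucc
mmu-miR-27a-3p: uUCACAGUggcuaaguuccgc
mmu-miR-27b-3p: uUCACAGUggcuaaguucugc
mmu-miR-24-3p: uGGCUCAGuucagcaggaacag

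miR-27a-3p and miR-27b-3p have the same seed and differ by 1 substitution over 21 bases, C19U (miR-27a-3p base first, counted from 1 at the 5′ end). The seeds of miR-23a-3p and miR-27a-3p share 6 of 7 bases, although the whole strands differ at 10 of 21 positions. miR-24-3p has an unrelated seed. Its sequence is the same at both loci, so that a read of it fits Mir24-2 and Mir24-1 alike. The 5p strands of the miR-24 hairpins differ between the loci and are shown because reads of them can be assigned to one locus (seeds in capitals).
mmu-miR-24-2-5p: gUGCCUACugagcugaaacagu
mmu-miR-24-1-5p: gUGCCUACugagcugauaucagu

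The small RNA-seq libraries held 10986541 counts in Control, 8437993 in ScxHt and 8435829 in Dicer cKO, and the RNA-seq libraries 14959399 to 16244232. Tendon was present in every library by its markers, since all 8 (Scx, Tnmd, Mkx, Thbs4, Fmod, Kera, Col1a1 and Comp) had reads, with summed RNA-seq levels of 88877, 73161 and 49984 reads per 1000000 counts (RPM) in Control, ScxHt and Dicer cKO. This sum was mostly Col1a1, with 1261322, 925996 and 658168 reads, and most of the other tendon markers had more reads in ScxHt than in Control once scaled, as given with the markers of other cell types after the hairpins. Marker levels of other cell types differed between the libraries. The 15 skeletal muscle markers summed to 65114, 36414 and 111878 RPM, the 15 endothelium markers to 1084, 814 and 1174, the 7 macrophage markers to 235, 445 and 188, and the 7 erythroid markers to 189, 195 and 462, with no marker of these lists at 0 in any library. Their part in the results that follow was not tested. Dicer1, the targeted gene, had 1919, 2025 and 1621 RNA-seq reads in the same order, a Dicer cKO/Control ratio of 0.877, counted over the whole gene and not over the deleted part alone.

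The clusters were well expressed in all 3 tendons. Their 6 hairpins held 1.45% of the small RNA counts in Control, 1.93% in ScxHt and 1.53% in Dicer cKO, with miR-24 counted at both of its loci. With miR-24 counted once, at Mir24-1, these shares of the unchanged library totals were 1.16%, 1.49% and 1.18%. By level, 5 of the 6 ranked between 28 and 46 among the 2265 features in every library. Mir27a was the low member, with ranks from 72 to 80. In RPM, the summed Mir23b cluster was above the summed Mir23a cluster in each library.

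Mir23a, the first hairpin of the Mir23a cluster, had 32740 reads in Control, 27481 in ScxHt and 23790 in Dicer cKO. These were 2980, 3257 and 2820 RPM. Mir27a had 4798, 5122 and 4052 reads, or 437, 607 and 480 RPM. Its level was the lowest of the 6 in each library, by a wide margin.

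Mir23b had 18970 reads in Control, 18588 in ScxHt and 13804 in Dicer cKO, or 1727, 2203 and 1636 RPM. Mir27b had 38521, 37972 and 27336 reads, or 3506, 4500 and 3240 RPM. Both stood highest in the ScxHt and lowest in the Dicer cKO library on this scale. Mir27b was the highest member in the Control and ScxHt libraries.

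Mir24-2 had 32029, 36685 and 30162 reads in Control, ScxHt and Dicer cKO, and Mir24-1 had 32083, 36750 and 30239. The loci differed by 54, 65 and 77 reads, at most 0.255% of the Mir24-1 count, as would follow if reads of the shared miR-24-3p were counted at both. They are read here as one measurement given at 2 loci, and how much of it each cluster contributed cannot be told apart. Mir3074-1 and Mir3074-2, on the opposite strand over the same bases, had 14, 6 and 9 and 14, 4 and 9 reads, so reads of the miR-24 strand were not counted there.

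**Figure D2:**
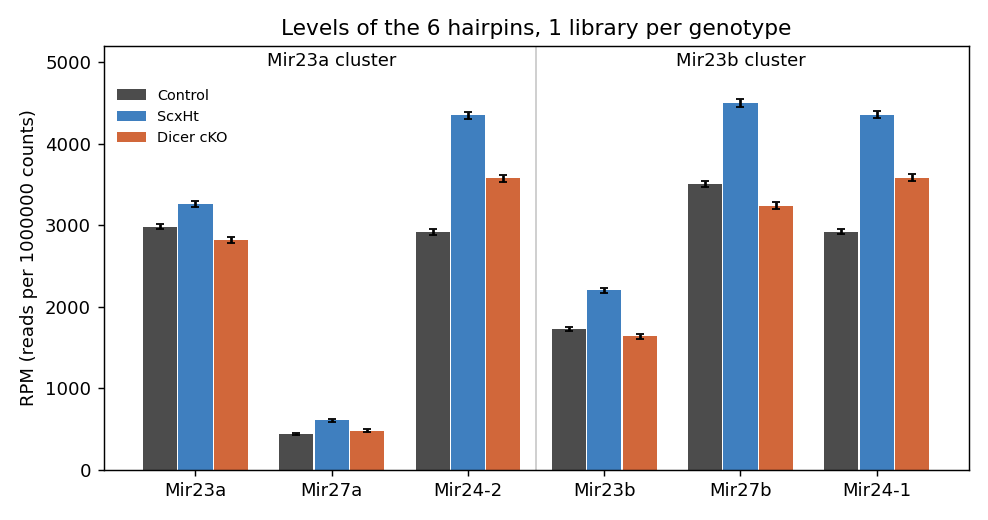
RPM of small RNA-seq on the y axis (linear, from 0) for each hairpin, 1 bar per library. Error bars are exact 95% intervals for counting error. Mir27a is the lowest in each library, and the bars of Mir24-2 and Mir24-1, which share a mature miRNA, are alike.

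To ask whether the levels differed between genotypes, each count was divided by its library's DESeq2 size factor, estimated on the pair of libraries at hand, and normalized counts were compared as a ratio with an exact 95% Clopper-Pearson interval. Such an interval holds counting error and nothing else, and at the depth of these hairpins it is narrow. It treats reads as independent molecules, which they are not, so it can be too narrow even for counting error. Features with a mean normalized count (baseMean) over 15 were analysed, and those past a ratio of 1.67 were called higher and those under 0.60 lower. The comparisons share libraries, so they are not independent of each other.

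In Dicer cKO against Control, none of the 6 hairpins passed either threshold, where 12.6% of the 334 features analysed did. Mir23a, Mir23b and Mir27b had ratios below 1 and the miR-24 loci ratios slightly above 1. The ratio was 0.833 (0.819 to 0.847) for Mir23a, 0.834 (0.816 to 0.853) for Mir23b and 0.813 (0.801 to 0.826) for Mir27b. That of Mir27a was 0.968 (0.928 to 1.01), with an interval that held 1. The miR-24 ratio was 1.08 (1.06 to 1.10) at both loci. Counted from the lowest ratio of the 334 features, the 6 took ranks 82 to 195, with Mir27b first among them. An interval wholly below 1 was found for 3 of the 6 hairpins and for 31.7% of all features, and an interval wholly above 1 for 2 of the 6, both of them the miR-24 loci, and 31.1% of all features. All such tallies count miR-24 at both loci. In each comparison the shares over all features include shallow ones, down to a baseMean of 15. Their intervals are wider than those of the 6 hairpins and hold 1 more easily. Their ratios also pass a threshold more easily through counting error. For 3 of the 6 the side of 1 depended on the scaling. With total counts in place of size factors Mir27a had a ratio of 1.10, and with total counts without the muscle miRNAs Mir23a and Mir23b had 1.01, whereas Mir27b stayed below 1 and the miR-24 loci above 1 under each scaling tried.

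In ScxHt against Control, again none of the 6 passed, beside 9.94% of 332 features. Here 5 of the 6 hairpins had intervals above 1 and 1 an interval below 1, with 24.4% and 32.8% of all features on these sides. The miR-24 loci had the highest ratio, 1.29 (1.27 to 1.31), followed by Mir27a with 1.20 (1.16 to 1.25), Mir27b with 1.11 (1.09 to 1.13) and Mir23b with 1.10 (1.08 to 1.13). Mir23a had 0.946 (0.931 to 0.961), which turned to 1.09 with total counts. The members thus took ranks 152 to 283 from the lowest of 332.

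In Dicer cKO against ScxHt, the pair that shares ScxCre, all 6 hairpins had ratios below 1 and none passed 0.60, while 13.4% of 322 features passed either threshold. Mir27b had the lowest ratio, 0.720 (0.709 to 0.731), and Mir23b the next, 0.743 (0.726 to 0.759). Mir27a had 0.791 (0.759 to 0.825), the miR-24 loci 0.822 (0.810 to 0.835) at Mir24-2 and 0.823 at Mir24-1, and Mir23a 0.866 (0.851 to 0.881). All 6 intervals lay below 1, as did those of 33.9% of all features, while 25.8% lay above 1, and all 6 ratios stayed below 1 under each scaling tried. Ranks ran from 33 to 98 of 322.

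**Figure D3:**
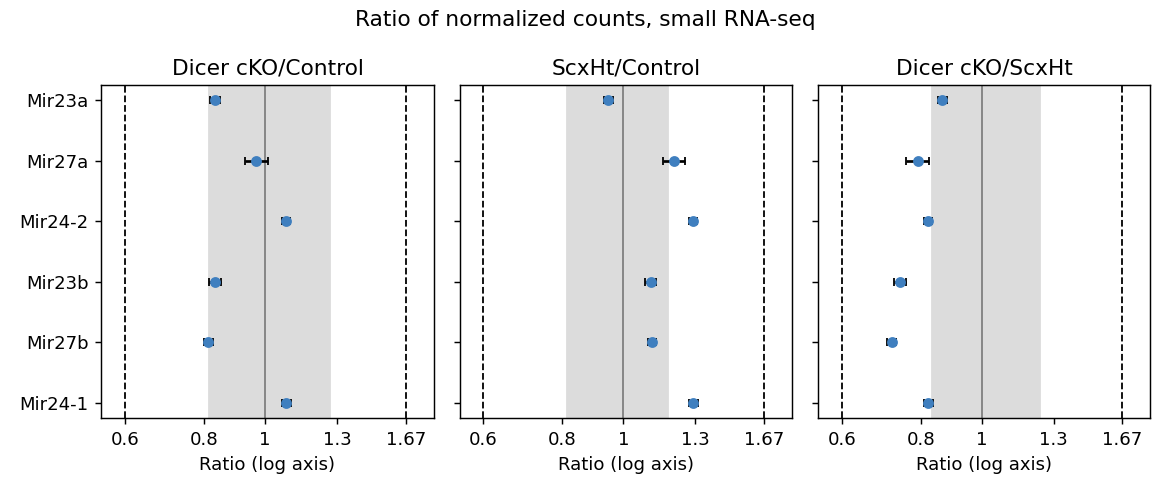
Ratio of normalized small RNA-seq counts (log axis) for the 6 hairpins in the 3 comparisons, 1 library per genotype. Points are ratios with 95% counting intervals, dashed lines the thresholds of 0.60 and 1.67, and the grey band the middle 50% of all features analysed. All points lie between the dashed lines. In Dicer cKO/ScxHt they lie at or below the lower edge of the band except Mir23a, and the members nearest to 1 in Dicer cKO/Control are Mir27a and the miR-24 loci.

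Partners cut from one transcript can be compared inside a library, where no scaling between libraries enters. In the Mir23b cluster, Mir23b and Mir27b kept a nearly constant proportion. Mir24-1, whose reads fit both clusters, is compared further below and did not keep its proportion to them. Mir23b had 0.492 (0.484 to 0.501) reads for each read of Mir27b in Control, 0.490 (0.481 to 0.498) in ScxHt and 0.505 (0.495 to 0.515) in Dicer cKO. The proportion in Dicer cKO was 1.03 times that in Control (0.998 to 1.05, Woolf interval for counting error) and 1.03 times that in ScxHt (1.004 to 1.06). Between ScxHt and Control the factor was 0.994 (0.970 to 1.02). Mir23b and Mir27b thus changed together to within a few percent, although the interval against ScxHt did not hold 1. How far reads of miR-23a and miR-23b can be told apart was not checked, and reads counted at the other locus would move this proportion.

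In the Mir23a cluster, Mir23a and Mir27a did not keep a constant proportion. Mir23a outnumbered Mir27a by 6.82 (6.62 to 7.04) in Control, 5.37 (5.21 to 5.53) in ScxHt and 5.87 (5.68 to 6.07) in Dicer cKO, and the 3 intervals do not overlap. The proportion in ScxHt was 0.786 (0.754 to 0.820) times that in Control, and that in Dicer cKO 0.860 (0.823 to 0.900) times. As a share of Mir23a and Mir27a together, Mir27a made up 12.8% (12.4 to 13.1, exact interval) in Control, 15.7% (15.3 to 16.1) in ScxHt and 14.6% (14.1 to 14.97) in Dicer cKO. Mir27b, whose 3p strand differs from that of Mir27a by C19U alone, had far more reads, 38521, 37972 and 27336. A small part of them counted at Mir27a would move these proportions, and this was not tested.

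Other neighbouring hairpins give a rough scale for how far partners drift apart. Over 49 other pairs within 1000 bases on the same strand, with a mean normalized count above 100, the absolute log2 change of the partner ratio had a median of 0.34 (quartiles 0.17 and 0.52) in Dicer cKO/Control. This set was chosen after the members' values were seen, some of its hairpins are in several pairs, and pairs with near-identical counts were left out. Some pairs hold a hairpin with a numbered twin at another locus, such as Mir19b-1 and Mir19b-2. These were kept, although miR-24 was left out of the members' pairs. Reads shared with the other locus could move such pair ratios, and this was not tested. Mir23b with Mir27b changed by 0.036, less than all but 3 of the 49. In ScxHt/Control, the median of the other pairs was 0.29 and Mir23b with Mir27b changed by 0.0086, with no other pair below it. In Dicer cKO/ScxHt the median was 0.20, the change was 0.045, and 4 other pairs were lower. Mir23a with Mir27a changed by 0.22, 0.35 and 0.13 in these comparisons, with 17, 30 and 16 of the 49 pairs below it, well inside the range of the others. Counting error was not subtracted from these changes, and it is larger in shallow pairs. Mir144 and Mir451a, for example, had 187 and 559 reads in Control. Mir23b and Mir27b had 13804 reads or more in each library. Whether this depth accounts for their low place among the pairs was not tested.

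**Figure D4:**
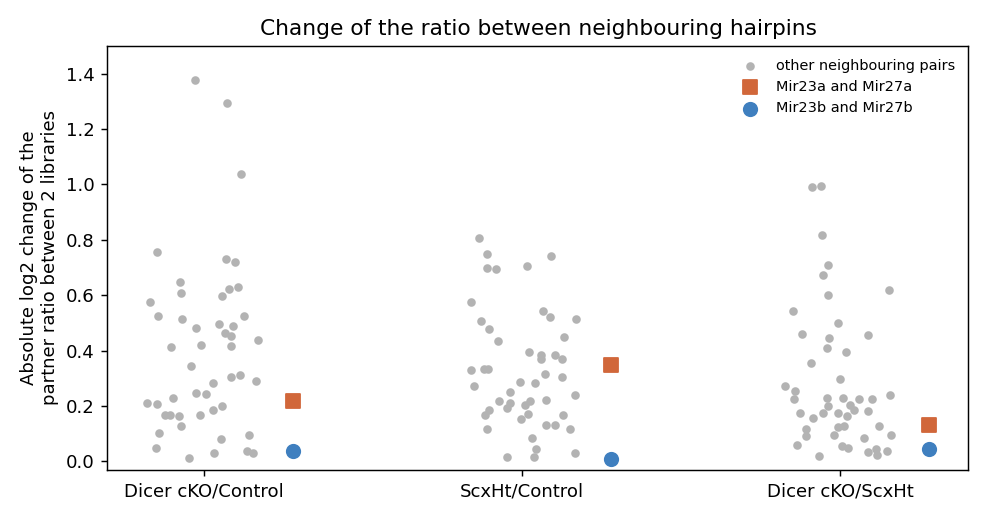
Absolute log2 change of the ratio between neighbouring hairpins from one library to another (y axis), for 49 other pairs within 1000 bases (grey) and for the partners of each cluster, in the 3 comparisons. Points of other pairs are spread sideways only to separate them. Mir23b with Mir27b (blue) lies near 0 in each comparison, below every grey point in ScxHt/Control, while Mir23a with Mir27a (orange) lies among them.

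Relative to miR-24, the other members stood lower in Dicer cKO than in Control in both clusters. Mir23a per read of Mir24-2 went from 1.02 in the Control to 0.749 in ScxHt and 0.789 in Dicer cKO. Mir23b per read of Mir24-1 went from 0.591 to 0.506 and 0.456, and Mir27b per read of Mir24-1 from 1.20 to 1.03 and 0.904. Mir27a per read of Mir24-2 moved least, from 0.150 to 0.140 and 0.134. The change from Control to Dicer cKO was 0.772 (0.754 to 0.790) for Mir23a, 0.772 (0.752 to 0.793) for Mir23b, 0.753 (0.736 to 0.770) for Mir27b and 0.897 (0.858 to 0.938) for Mir27a. Since reads of miR-24-3p cannot be assigned to one locus, these are best read as ratios to the miR-24 of both clusters together.

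Between the clusters, the paralogs differed in which one dominated. Mir23a had 1.73 (1.70 to 1.76) reads per read of Mir23b in Control, 1.48 (1.45 to 1.51) in ScxHt and 1.72 (1.69 to 1.76) in Dicer cKO. The Control and Dicer cKO libraries could not be told apart in this ratio (factor 0.999, 0.971 to 1.03), while ScxHt stood lower than Control (0.857, 0.835 to 0.879). For miR-27 the balance was the opposite. Mir27a had 0.125 (0.121 to 0.128) reads per read of Mir27b in Control, 0.135 (0.131 to 0.139) in ScxHt and 0.148 (0.143 to 0.153) in Dicer cKO. The Dicer cKO ratio was 1.19 (1.14 to 1.24) times that of the Control. Since miR-27a-3p and miR-27b-3p are separated by C19U alone, reads that end before that base or carry an error there can move between the loci, and how mismatches were treated is not given in the sources used here. How far reads of miR-23a and miR-23b can be told apart was not checked here, so the same limit holds for the ratio of Mir23a to Mir23b.

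Summed over its hairpins, the Mir23a cluster had 69567 reads in Control, 69288 in ScxHt and 58004 in Dicer cKO, and the Mir23b cluster 89574, 93310 and 71379. The Dicer cKO/Control ratio of the sum was 0.956 (0.945 to 0.966) for the Mir23a cluster and 0.913 (0.904 to 0.922) for the Mir23b cluster. With total counts both turned to the other side of 1, at 1.09 and 1.04. Without the shared miR-24 loci, the ratios were 0.850 (0.837 to 0.863) and 0.820 (0.810 to 0.831), and they stayed below 1 under each scaling tried except for the Mir23a cluster with total counts without the muscle miRNAs, at 1.03. In ScxHt/Control the sums without miR-24 had ratios of 0.979 (0.964 to 0.993) and 1.11 (1.10 to 1.12). The first turned above 1 with the total counts (1.13, beside 1.28 for the Mir23b cluster), so that the clusters lay on opposite sides of 1 with size factors of the pair and not with total counts. In Dicer cKO/ScxHt they were 0.854 (0.840 to 0.868) and 0.727 (0.718 to 0.737). By family, miR-23 from both loci gave a Dicer cKO/Control value of 0.833 (0.822 to 0.844) and miR-27 from both loci one of 0.830 (0.818 to 0.843). With total counts without the muscle miRNAs these were 1.01 and 1.003.

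For context, the features with the most similar pattern over the 3 libraries were taken from the 227 others with a mean normalized count above 100, by the distance between centred log2 levels. With only 3 points per feature, many features lie close by. For the summed Mir23a cluster they were Mirlet7e (distance 0.030), Mir218-1 (0.034), Mir320 (0.038), Mir29b-2 (0.050) and Mir214 (0.071). For the summed Mir23b cluster they were Mir103-1 (0.036), Mir103-2 (0.037), Mir29b-1 (0.051), Mir214 (0.059) and Mir29b-2 (0.066). Mir103-1 and Mir103-2 had near-equal counts, 16742 and 16828 in the Control library. These sums hold the miR-24 reads, and without them no neighbour was the same. For Mir23a and Mir27a the nearest were then Mir99b (0.013), Mir222 (0.015), Mir29c (0.030), Mir154 (0.040) and Mir143 (0.046). For Mir23b and Mir27b they were Mir195a (0.010), Mir155 (0.038), Mir223 (0.044) and Mir431 (0.067), which the table lists under 2 names.

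Ratios of miRNAs of other cell types are given for scale. The 8 muscle miRNA loci, which belong to the miR-1, miR-133, miR-206, miR-208 and miR-499 families, lay between 1.42 and 1.84 in Dicer cKO/Control, and between 0.488 and 1.12 in ScxHt/Control. Of 12 listed miRNAs of blood and vessels, 9 were found by name and 8 were analysed, with Dicer cKO/Control ratios from 0.683 to 1.37 and a median of 0.966. Mir126a, the endothelial miRNA, had 201949 reads in Control, 150234 in ScxHt and 180654 in Dicer cKO, with ratios of 1.03 in Dicer cKO/Control and 0.838 in ScxHt/Control. Mir223, found in myeloid cells, had 0.828 and 1.16, and the erythroid Mir451a 1.20 and 0.794. The 7 macrophage markers in RNA-seq had ratios from 0.728 to 0.877 in Dicer cKO/Control and from 1.53 to 1.93 in ScxHt/Control. The 8 tendon markers had ratios from 0.365 to 0.948 in Dicer cKO/Control, with a median of 0.522, and from 0.623 to 1.57 in ScxHt/Control, with a median of 1.23. In ScxHt/Control, Col1a1 (0.704) and Scx (0.623) were below 1 and the other 6 tendon markers above it. Scx also had the lowest Dicer cKO/Control ratio of the 8, 0.365. Its gene carries the Cre knock-in in ScxHt and Dicer cKO, so its ratios to Control cannot be read as tendon content alone. All 15 endothelium markers had ratios below 1 in ScxHt/Control, from 0.570 to 0.994, and 9 of 15 in Dicer cKO/Control. Whether these cell types contributed to the members' values was not tested.

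RNA-seq gave little on the transcripts that carry the clusters. It counted 35, 22 and 32 reads at Mir23a in Control, ScxHt and Dicer cKO, 10, 4 and 1 at Mir27a and 11, 5 and 6 at Mir24-2. At Mir23b it counted 4, 3 and 10, at Mir27b 38, 22 and 23 and at Mir24-1 13, 11 and 24. Summed per cluster, the Dicer cKO/Control ratio was 0.723 (0.468 to 1.11) for the Mir23a cluster and 1.08 (0.730 to 1.59) for the Mir23b cluster, so neither could be told from 1 at this depth. In ScxHt/Control they were 0.530 (0.331 to 0.837) and 0.627 (0.400 to 0.972), and in Dicer cKO/ScxHt 1.39 (0.843 to 2.30) and 1.74 (1.13 to 2.73). Counts recomputed from the deposited RPKM values were fractions at some hairpins, such as 0.50 at Mir27a in Dicer cKO and 4.33 at Mir23b in Control. The numbers above are thus rounded, and the intervals treat them as whole reads. The strand setting of the RNA-seq counting is not given in the sources used here.

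Of the genes around the clusters, Zswim4 beside the Mir23a cluster had 218, 186 and 192 RNA-seq reads in Control, ScxHt and Dicer cKO and a Dicer cKO/Control ratio of 0.915 (0.749 to 1.12). Fancc, a DNA repair gene antisense to the Mir23b cluster, had 208, 159 and 146 reads and a ratio of 0.729 (0.586 to 0.905), and without a known strand setting its reads cannot be told from those of the host gene that it overlaps. Nanos3 had 0 reads in each library. The lincRNA Gm16907 had 9, 10 and 3 reads. No row for the host gene was matched under 2010111I01Rik or Aopep, so the host transcript was not analysed here. Among genes that make and use miRNAs, the Dicer cKO/Control ratios were 1.02 for Drosha, 1.14 for Dgcr8, its partner in hairpin cutting, and 0.899 for Ago2, the slicing Argonaute. None of these passed a threshold.

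Targets of each family known from general knowledge were taken as a list, and a gene was analysed above a baseMean of 50. In RNA-seq as a whole, 8.09% of 13504 genes passed a threshold in Dicer cKO/Control (3.92% higher and 4.17% lower), 7.8% of 13563 in ScxHt/Control (3.07% and 4.73%) and 13.4% of 13555 in Dicer cKO/ScxHt (7.68% and 5.68%). The median log2 ratio of all genes was -0.034, 0.019 and -0.035. The lists did not move one way. All 17 miR-23 targets were analysed, with 2 higher and 1 lower in Dicer cKO/Control and a median log2 ratio of -0.15. Of 14 miR-27 targets 10 were analysed, none passed, and the median was -0.11. Of 13 miR-24 targets 11 were analysed, with 1 higher and 1 lower and a median of -0.063. In ScxHt/Control the medians were -0.085, -0.22 and -0.080, with 2, 1 and 1 genes lower and 0, 1 and 0 higher, and that of the miR-23 targets turned to 0.020 with total counts. In Dicer cKO/ScxHt they were 0.033, 0.11 and 0.041, with 3, 2 and 1 genes higher and 1, 1 and 0 lower.

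Among the miR-23 targets, the highest Dicer cKO/Control ratios were those of genes of muscle. Ppargc1a, a coactivator that drives mitochondrial genes, had 540, 347 and 1160 reads in Control, ScxHt and Dicer cKO, a ratio of 2.23 (2.01 to 2.48). Trim63, which encodes the muscle ubiquitin ligase MuRF1, had 290, 176 and 593 reads and a ratio of 2.12 (1.84 to 2.45). Fbxo32, which encodes the muscle ubiquitin ligase atrogin-1, had 809, 468 and 1258 reads and a ratio of 1.61 (1.48 to 1.77). All 3 were highest in the Dicer cKO and lowest in the ScxHt library, the order of the summed skeletal muscle markers given above. Among the muscle genes of the lists that follow, Mef2c had this order of reads too. Mstn, Lpl and Jph2 had the fewest reads in Control, and Foxo1 had the fewest in Dicer cKO. Whether muscle content played a part was not tested. Toward the other end, Sema6a, a membrane semaphorin, had a ratio of 0.768 (0.707 to 0.835), and Met, the HGF receptor, one of 0.780 (0.725 to 0.838).

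Among the miR-27 targets, Mstn, which encodes the muscle growth inhibitor myostatin, had 50, 72 and 78 reads and a Dicer cKO/Control ratio of 1.62 (1.12 to 2.36). Mef2c, a muscle transcription factor, had 1.34 (1.29 to 1.38), and Lpl, the lipoprotein lipase of fat and muscle, 1.32 (1.28 to 1.36). Runx1, a transcription factor of blood and mesenchymal cells, had 1935, 1732 and 1122 reads and the lowest ratio, 0.602 (0.559 to 0.648), just above the threshold of 0.60. Foxo1, a transcription factor that acts in muscle atrophy, had 2647, 3064 and 1750 reads and a ratio of 0.687 (0.646 to 0.730), and Rxra, a nuclear receptor, 0.861 (0.792 to 0.935). The vessel gene Dll4, a Notch ligand of tip cells, had 158, 96 and 146 reads and ratios of 0.960 in Dicer cKO/Control and 0.582 in ScxHt/Control. Cyp1b1, below the minimum in Dicer cKO/Control, had 48, 138 and 30 reads and a ratio of 2.76 (1.97 to 3.91) in ScxHt/Control.

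Among the miR-24 targets, Jph2, which holds muscle membranes together at calcium release sites, had 512, 531 and 852 reads and a Dicer cKO/Control ratio of 1.73 (1.55 to 1.93). H2afx, the DNA damage histone, had 1.34 (1.07 to 1.67). The lowest were Myc, a growth regulator with few reads (83, 41 and 46), at 0.576 (0.392 to 0.835), Pak4, a kinase, at 0.763 (0.555 to 1.04) and Gata2, a factor of blood and endothelial cells, at 0.872 (0.650 to 1.17). Nos3, the endothelial nitric oxide synthase, had 351, 298 and 405 reads and ratios of 1.20 (1.04 to 1.39) in Dicer cKO/Control and 0.814 (0.695 to 0.952) in ScxHt/Control.

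**Figure D5:**
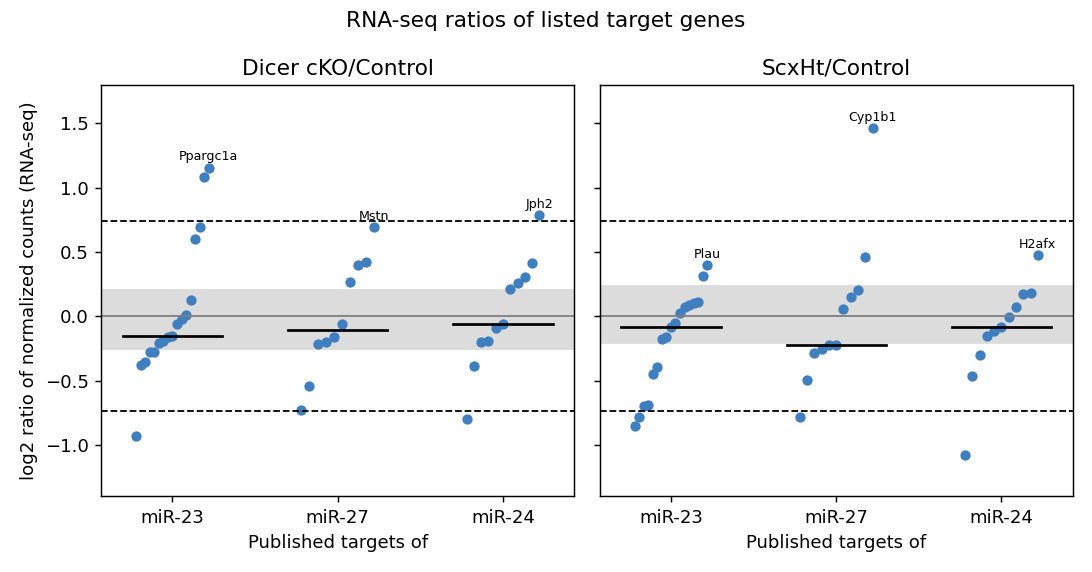
log2 ratio of normalized RNA-seq counts (y axis) of the listed targets of miR-23, miR-27 and miR-24 that were analysed, in Dicer cKO/Control and ScxHt/Control. Each point is a gene, sorted within its list, the black bar is the list's median, the grey band the middle 50% of all genes and dashed lines the thresholds. The medians lie inside the band except that of miR-27 in ScxHt/Control (-0.22), just below its lower edge, and the highest Dicer cKO/Control point of each list is Ppargc1a, Mstn or Jph2.

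Beyond the lists, genes were sorted by the seed sites in their longest annotated 3′ UTR. An 8mer site was the letters AATGTGAA for miR-23, ACTGTGAA for miR-27 and CTGAGCCA for miR-24, read on the transcript strand. Of 21020 genes with an annotated 3′ UTR, 6.29%, 5.93% and 7.34% held one. In Dicer cKO/Control the median log2 ratio was -0.055 over 835 analysed genes with a miR-23 8mer, -0.036 over 734 with a miR-27 8mer and -0.044 over 985 with a miR-24 8mer, beside -0.037 over all 10956. It was -0.026 over the 6261 genes with neither an 8mer nor a 7mer-m8 of the 3 families. A 7mer-m8 is the 8mer without its last A. In ScxHt/Control the medians were 0.012, -0.0055 and -0.0018, beside 0.024 over all. In Dicer cKO/ScxHt they were -0.028, -0.024 and -0.042, beside -0.043. The share of genes above 1.67 in Dicer cKO/Control was 2.99%, 2.72% and 2.74% for the genes with an 8mer and 3.82% for all. In ScxHt/Control it was 2.64%, 1.90% and 2.43% beside 3.04%, and in Dicer cKO/ScxHt 7.75%, 7.57% and 8.09% beside 7.48%. Genes with a site also had longer 3′ UTRs, with medians of 2745, 2714 and 2658 bases against 1312 over all. Of the listed targets, 8 of 17 for miR-23, 9 of 14 for miR-27 and 5 of 13 for miR-24 held an 8mer of their family.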

How the data were processed

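Members, lists and comparisons were chosen with earlier results of these data known. The authors trimmed adaptors, aligned the reads to GRCm38 (TopHat, Bowtie2) and counted reads per gene by HTSeq. Deposited were raw counts per gene from the authors, and RPKM values, which are scaled by feature length and library total. The RPKM values were used here only to recompute the counts of the hairpins, with lengths from the annotation. In small RNA-seq the recomputed values equalled the counts. In RNA-seq some were fractions, such as 0.50 for the count of 1 at Mir27a in Dicer cKO, so the deposited RNA-seq counts are read as rounded. Versions and the handling of reads that fit several loci are not given in the sources used here. Per the submitters' notes DESeq2 was also used. Size factors came from DESeq2 1.42.0 in R 4.3.3, with edgeR 4.0.16 TMM as an alternative. All else was run in Python 3.11.15 (scipy 1.17.1, pandas 2.3.3, numpy 2.4.6, matplotlib 3.10.9). No shrinkage was applied. The minimum baseMean was 15 in small RNA-seq and 50 in RNA-seq, with fold thresholds as in the study's methods. Intervals have a 95% level, and counts of 3 or fewer were taken as the floor. The annotation was GENCODE vM21 (GRCm38). In RNA-seq, 463 lines repeat an earlier one. The procedure was run on counts simulated with Poisson error and the same size factors. These held no spread between mice and no reads shared between loci, so the run says nothing on those limits. Genes named were the members, the genes next to them, 4 machinery genes, the 5 nearest features, the 3 genes at either end of each target list by Dicer cKO/Control ratio and listed genes of muscle or vessels. Cyp1b1 was named after its values were seen. Of the genes this rule names, 2 are not reported here.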

Additional observations from a re-analysis of the deposited data

How the results depend on the processing

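No hairpin of the 6 passed a threshold under any alternative tried. The median ratio of the 6 hairpins counts miR-24 at both of its loci, which raises it in Dicer cKO/Control. With total counts, Mir23a (0.946), Mir23b (0.948) and Mir27b (0.924) stayed below 1 there, so the median passed 1 through this double count. This median moved from 0.901 in Dicer cKO/Control to 0.933 with TMM and 1.02 with total counts. It moved to 0.981 with total counts without features above 1% of a library and 1.09 with total counts without the 8 muscle miRNAs. In ScxHt/Control it moved from 1.16 to 1.34, 1.24 and 1.31 under the last 3 of these, and in Dicer cKO/ScxHt from 0.807 to 0.834 and 0.875 under the last 2. Scaling without the muscle miRNAs was chosen after seeing the data. The median log2 ratio of all features moved by up to 0.27, 0.21 and 0.12 in these comparisons, so the members moved with the rest, and the ratios between partners do not depend on scaling. Calls among all features numbered 42 of 334 against Control and 43 of 322 against ScxHt in Dicer cKO, and 33 of 332 in ScxHt against Control. In the order Dicer cKO/Control, ScxHt/Control, Dicer cKO/ScxHt, they were 20, 15 and 25 with ratios above 2 or below 0.5, 18, 4 and 17 with the whole interval past the threshold, 64, 72 and 88 at a minimum baseMean of 5, 18, 8 and 20 at 100 and 331, 354 and 333 with none, and 73 in Dicer cKO/Control without the muscle miRNAs. The number of features analysed changes with the minimum baseMean and is not given for the other minima, so those counts cannot be read as shares. Without the Mir24 loci, the summed Mir23a cluster had 0.850, 0.979 and 0.854, and the Mir23b cluster 0.820, 1.11 and 0.727. The scalings of the sums were added after seeing the data. In Dicer cKO/Control, with TMM, total counts, size factors of all 3 libraries, total counts without features above 1% and total counts without the muscle miRNAs, the Mir23a cluster had 0.990, 1.09, 0.976, 1.04 and 1.15 and the Mir23b cluster 0.946, 1.04, 0.933, 0.994 and 1.10. In ScxHt/Control, under the last 4 of these, they had 1.297, 1.15, 1.20 and 1.27, and 1.36, 1.20, 1.26 and 1.33. In Dicer cKO/ScxHt, under the last 3, they had 0.850, 0.866 and 0.908, and 0.777, 0.791 and 0.830. Per length, Mir23a to Mir27a was 7.92, 6.22 and 6.81 in the Control, ScxHt and Dicer cKO library, and Mir27a to Mir27b 0.105, 0.113 and 0.124. With total counts, the median log2 ratio of the miR-23 targets in ScxHt/Control was 0.020 and that of the miR-27 targets -0.12. No paired analysis was possible because each genotype had 1 library per assay. With 1 library each, leaving out a replicate was not possible either. The small RNA counts of the 6 hairpins rest on 4052 reads or more, so depth did not limit those counts. The other pairs and the shares over all features include shallower features. Depth did limit the RNA-seq counts at the hairpins, and the spread between mice is unknown for both assays.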
